A study of Mus musculus with 6 samples.

Results

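The slit diaphragm and foot process genes described here were 10 genes given by name: Nphs1, Cd2ap, Magi2, Ptpro, Podxl, Synpo, Actn4, Inf2, Myo1e and Myh9. They were found in the count table by removing the version from its Ensembl identifiers and matching the rest to the symbols of GENCODE M21, and all 10 were among the 57132 identifiers listed. Of the 10, 9 passed the filter on low counts and were tested together with the other genes, 16263 in all.

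Podocytes are the epithelial cells on the outer face of the glomerular capillary. Their foot processes interlock with those of neighbouring cells, and the gap between them is closed by the slit diaphragm, a junction of nephrin and related adhesion molecules that is tied by adaptor proteins to the actin of the foot process. The apical membrane above the junction carries a negatively charged coat, and the actin bundles inside depend on cross-linkers, formins and myosins. Inherited defects in many of these proteins cause nephrotic syndrome.

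RNA was measured in immortalized podocyte lines from the kidney of male mice, 8 weeks old by the labels. The line IMWT (WT-Col4a3+/+) gave 3 WT libraries, and the line IMAS (Col4a3-/-, the AS line) gave 3 AS libraries. Alport syndrome (AS) is the disease of type IV collagen that the loss of Col4a3 models. All cells received no treatment, were kept at 33 °C with 10% serum and 20 U/mL interferon gamma, and were differentiated at 37 °C for 14 days, as the labels state. The study's methods give another medium, a lower interferon dose and fewer days. Both lines carry the H-2Kb-tsA58 transgene, in which an interferon-inducible promoter drives a temperature-sensitive large T antigen. Each genotype was 1 line, so genotype and line cannot be told apart, and whether the sets numbered 1 to 3 were separate cultures is not stated, so p-values measure only the spread between these libraries.

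The libraries held between 45417221 and 54290968 counts, and the mitochondrial share was 0.882% to 1.68% in WT and 1.30% to 2.02% in AS libraries. Levels are given as CPM, the counts of a gene scaled to library size (TMM) on the usual CPM scale. Col4a3, the gene knocked out, stood at 938, 1052 and 1272 CPM in the WT libraries and at 62.4, 61.2 and 83.0 CPM in the AS libraries, and its log2 fold change was -3.98 (edgeR, adjusted p = 1.31e-07, with 0.15 as its standard error, SE). Many genes differed between the lines: 20.4% of those tested were higher and 19.6% lower in AS podocytes at an adjusted p under 0.05 (edgeR's quasi-likelihood test, two-sided, Benjamini-Hochberg adjustment), and the 3 WT and 3 AS values did not overlap in 52.3%. Whole chromosomes were also shifted, so the median log2 fold change of a member's chromosome, relative to all, is given where it was over 0.1 in size.

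Among the 10 genes, 6 fell and 1 rose in AS podocytes at that threshold. Nphs1, Podxl, Synpo, Myo1e, Cd2ap and Actn4 were lower, Myh9 was higher, Magi2 and Inf2 did not pass, and Ptpro had too few counts to be tested. Nphs1 passed the filter only through its WT counts and hence had to be lower in AS podocytes, so the next counts leave it out. Of the other 8 tested genes, 5 fell and 1 rose. The CPM of WT and AS libraries did not overlap in 7 of these 8 (52.3% of all genes tested), Inf2 being the exception. Their median log2 fold change was -0.35, against 0.0061 over all genes tested, which describes the genes and is no test of them. By the study's rule, an unadjusted p under 0.05 with a fold change over 2, 1 of the 9 passed in the edgeR test (Nphs1). In that test 12.1% of all genes met the rule. The study itself applied it to limma-voom, so its own count is of another test.

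**Figure D1:**
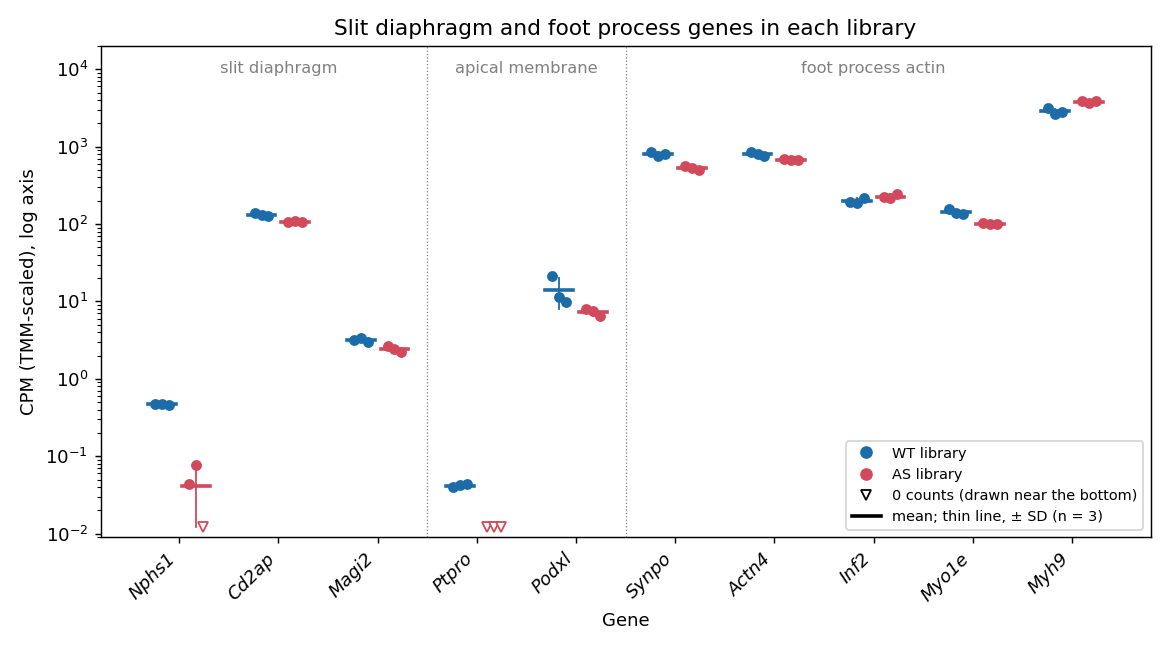
CPM of the 10 genes (log axis) in each WT (blue) and AS (red) library, with the mean and SD of 3 libraries; open triangles stand for 0 counts and are drawn near the bottom. Levels ran from under 0.1 CPM for Ptpro to 3918 CPM for Myh9. The WT and AS points were apart in every gene except Inf2, and 52.3% of all genes tested were also without overlap. The filter fixed the direction of Nphs1, and Ptpro had only 2 counts in each WT library and 0 in each AS library.

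Levels between the genes were compared per kilobase of exon, since longer transcripts collect more reads. The length is that of all annotated exons of a gene joined. Which transcripts were expressed was not determined, so levels per kilobase are approximate. In WT podocytes Myh9 led with 220 ± 19.8 CPM per kilobase (SD, n = 3), followed by Actn4 at 132 ± 7.46, Synpo at 84.3 ± 4.64, Inf2 at 40.9 ± 3.05, Myo1e at 25.1 ± 1.82, Cd2ap at 8.27 ± 0.395 and Podxl at 2.58 ± 1.13. Magi2 (0.283 ± 0.0170), Nphs1 (0.0704 ± 0.00146) and Ptpro (0.00622 ± 0.000312) closed the order, each below the level before it in all 3 libraries. The order was the same in AS podocytes, from Myh9 at 295 ± 13.2 CPM per kilobase to Cd2ap at 6.76 ± 0.116 and Magi2 at 0.215 ± 0.0179. Only the neighbours Nphs1 and Ptpro overlapped there, because each had a library at 0. By the mean over the 6 libraries, Myh9 stood at the 99.4th percentile of all tested genes by level per kilobase, Actn4 at the 98.3th, Synpo at the 96.6th and Inf2 at the 94.0th. Cd2ap was at the 65.1th, Podxl at the 38th, Magi2 at the 12.5th and Nphs1 at the 0.819th percentile. The 5 actin genes thus stood above the 5 junctional and apical genes, of which Cd2ap alone was above the middle of all tested genes.

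Of the slit diaphragm genes, Nphs1 (ENSMUSG00000006649.18, chromosome 7) encodes nephrin, the adhesion molecule that spans the slit. It had 24, 22 and 21 counts in the WT libraries, which is 0.473, 0.470 and 0.455 CPM, and 2, 4 and 0 counts in the AS libraries. Nephrin RNA was thus low but detected in every WT library and near the limit of detection in AS podocytes, without overlap. As the filter fixed its direction, its fitted value is given as a description: the log2 fold change was -3.47 (edgeR, adjusted p = 0.00276, SE 0.67; adjusted p = 0.000129 in the fit without a filter), and it ran from -4.37 without AS replicate 2 to -2.86 without AS replicate 3. From the summed counts of 67 and 6, the WT level was 11.8 times that of AS podocytes (95% exact interval 5.14 to 33.2, counting error only). A processed pseudogene, Rps12-ps4, shares 183 exonic bases with Nphs1 on the other strand. It had 151 to 191 counts in WT and 214 to 315 in AS libraries, and no source says whether reads were counted by strand.

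The stretch around the Nphs1 start site is shown because nephrin is the defining gene of the slit diaphragm and was nearly silent. It covers 250 bases before and 50 after the start (RefSeq, GRCm38.p6, chr7:30459808-30460107, plus strand), and no searched motif lies in it.
Nphs1: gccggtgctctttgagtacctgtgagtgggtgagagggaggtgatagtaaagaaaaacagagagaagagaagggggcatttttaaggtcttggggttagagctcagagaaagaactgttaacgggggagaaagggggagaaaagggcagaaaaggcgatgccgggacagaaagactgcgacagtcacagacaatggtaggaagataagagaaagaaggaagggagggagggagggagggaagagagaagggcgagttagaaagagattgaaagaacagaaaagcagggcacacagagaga

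Cd2ap (ENSMUSG00000061665.8, chromosome 17) encodes an adaptor that links nephrin to the actin cytoskeleton. Its level was 138, 130 and 125.5 CPM in the WT libraries and 106, 109 and 107 CPM in the AS libraries. Every AS library lay below every WT library, by a small margin. The log2 fold change was -0.29 (edgeR, adjusted p = 0.00239, SE 0.05), a level 0.817 times that of WT, and it passed in 14 of 14 alternative fits.

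Magi2 (ENSMUSG00000040003.19, chromosome 5) encodes a scaffold protein with PDZ domains that binds nephrin. It stood at 3.20, 3.42 and 3.03 CPM in WT and at 2.64, 2.43 and 2.24 CPM in AS libraries, so that the AS values were the lower ones. Its log2 fold change of -0.40 did not pass over all genes (95% interval -0.77 to -0.035, adjusted p = 0.0779, edgeR). The genes of chromosome 5 were shifted by 0.19, and with chromosome medians removed the Magi2 difference was -0.59 and passed (adjusted p = 0.0211, edgeR).

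On the apical membrane, Podxl (ENSMUSG00000025608.10, chromosome 6) encodes podocalyxin, the sialomucin whose charge keeps neighbouring foot processes apart. Its level was 21.2, 11.3 and 9.84 CPM in WT and 7.93, 7.43 and 6.40 CPM in AS libraries. WT replicate 1 lay far above the other WT libraries, which were only a little above the AS ones, and the coefficient of variation was 43.9% in WT against 10.8% in AS podocytes. Podxl fell by 0.97 on the log2 scale (edgeR, adjusted p = 0.0146, SE 0.26), to 0.512 times the WT level. Without WT replicate 1 the log2 fold change was -0.55 (adjusted p = 0.00717, edgeR), and without AS replicate 3 the call was lost at -0.88 (adjusted p = 0.0651, edgeR). Chromosome 6 was shifted by -0.21, and with that removed the value was -0.75 (adjusted p = 0.0494, edgeR).

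Ptpro (ENSMUSG00000030223.15, chromosome 6) encodes GLEPP1, a receptor tyrosine phosphatase of the podocyte's apical membrane. It had 2 counts in each WT library and 0 in each AS library. The 6 WT counts make 0.0418 CPM (95% exact Poisson interval 0.0153 to 0.0909), and 0 counts over the AS group allow up to 0.02435 CPM by the same interval. From 6 and 0 counts, the exact 95% interval of the ratio of WT to AS starts at 1.24, for counting error only. Fitted without a filter, the difference did not pass (adjusted p = 0.199, edgeR).

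**Figure D2:**
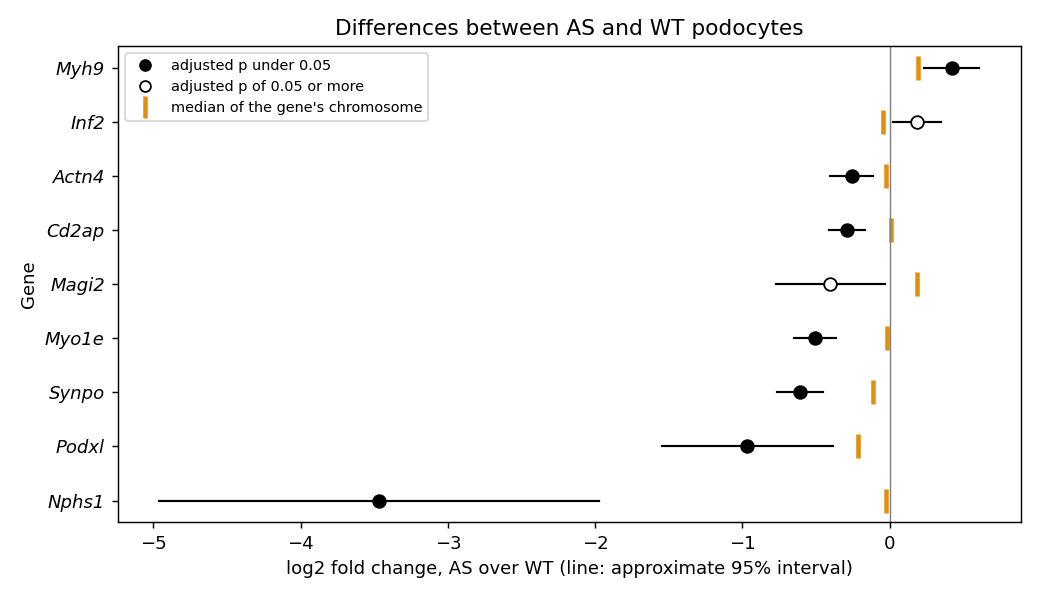
Log2 fold change (AS over WT) of the 9 tested genes with its approximate 95% interval, where filled points passed an adjusted p of 0.05 and orange ticks mark the median of the gene's chromosome relative to all. Myh9 and Inf2 lie right of 0 and the other genes left, with Nphs1 at -3.47 and its wide interval farthest out.

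Among the actin genes of the foot process, Synpo (ENSMUSG00000043079.18) encodes synaptopodin, which binds actin and alpha-actinin and marks differentiated foot processes. It was abundant in both lines, at 846.5, 758 and 805 CPM in WT and 558, 523.5 and 497 CPM in AS libraries. The lowest WT library was well above the highest AS library. Synpo fell by 0.61 on the log2 scale (edgeR, adjusted p = 0.000144, SE 0.07), to 0.655 times the WT level. Its chromosome, 18, was shifted by -0.12, and with that removed the log2 fold change was -0.49 (adjusted p = 0.00061, edgeR).

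Myo1e (ENSMUSG00000032220.11, chromosome 9) encodes a class I myosin that ties actin to the plasma membrane. Its level was 155, 140 and 135 CPM in WT and 103, 99.9 and 98.7 CPM in AS libraries, with a spread in AS podocytes of only 2.26% of the mean. The log2 fold change was -0.51 (edgeR, adjusted p = 0.000217, SE 0.06), a level 0.703 times that of WT. Actn4 (ENSMUSG00000054808.16, chromosome 7) encodes alpha-actinin 4, the main cross-linker of foot process actin. Its level was 859, 803 and 768 CPM in WT and 696, 666 and 669 CPM in AS libraries, a smaller gap than that of Synpo. The log2 fold change was -0.26 (edgeR, adjusted p = 0.0109, SE 0.06), or 0.836 times the WT level. Capn12 shares 316 exonic bases with Actn4 on the other strand but had at most 26 counts in a library.

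Inf2 (ENSMUSG00000037679.10, chromosome 12) encodes a formin that both builds and severs actin filaments. Its level was 192.5, 189 and 216.5 CPM in WT and 222, 214 and 244 CPM in AS libraries, so that WT replicate 3 lay above AS replicate 2. The log2 fold change of 0.18 did not pass (95% interval 0.019 to 0.35, adjusted p = 0.0729, edgeR). It passed in 5 of 14 alternative fits, with an adjusted p from 0.016 to 0.247 over all of them (edgeR, limma-voom and DESeq2), and was above 0 in each.

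Myh9 (ENSMUSG00000022443.18, chromosome 15) encodes the heavy chain of nonmuscle myosin IIA, the motor that tensions the actin bundles. It was the most abundant of the 10, at 3125, 2621 and 2793 CPM in WT and 3918, 3612 and 3898 CPM in AS libraries. Each AS library was above each WT library. Myh9 was the only one of the 10 that rose, with a log2 fold change of 0.42 (edgeR, adjusted p = 0.00349, SE 0.08), or 1.34 times the WT level. The genes of chromosome 15 were shifted by 0.19, and with that removed the value was 0.23 and the call was lost (adjusted p = 0.0621, edgeR).

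The start sites of Myh9, which rose, and of Actn4 and Myo1e, which fell, are shown to set abundant actin genes beside the nearly silent Nphs1. The windows are again 250 bases before to 50 after the start (RefSeq, GRCm38.p6): chr15:77842126-77842425 on the minus strand for Myh9, chr7:28962283-28962582 on the minus strand for Actn4, and chr9:70207100-70207399 on the plus strand for Myo1e. Capitals mark matches on either strand to GGGCGG (the GC box), TATAAA (the TATA box), GGAATG (the core bound by TEAD factors) and the CArG box bound by SRF, and no 2 matches overlap.
Myh9: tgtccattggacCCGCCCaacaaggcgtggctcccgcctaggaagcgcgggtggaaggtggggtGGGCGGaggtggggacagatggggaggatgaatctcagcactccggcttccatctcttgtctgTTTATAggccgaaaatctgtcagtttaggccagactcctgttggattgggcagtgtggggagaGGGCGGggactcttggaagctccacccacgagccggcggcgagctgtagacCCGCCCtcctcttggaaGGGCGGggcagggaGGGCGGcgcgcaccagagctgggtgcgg
Actn4: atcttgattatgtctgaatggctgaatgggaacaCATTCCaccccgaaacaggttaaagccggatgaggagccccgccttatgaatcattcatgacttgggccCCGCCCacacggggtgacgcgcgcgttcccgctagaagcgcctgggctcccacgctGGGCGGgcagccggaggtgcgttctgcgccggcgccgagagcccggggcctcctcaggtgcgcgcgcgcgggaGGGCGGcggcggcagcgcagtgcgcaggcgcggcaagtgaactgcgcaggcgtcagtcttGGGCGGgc
Myo1e: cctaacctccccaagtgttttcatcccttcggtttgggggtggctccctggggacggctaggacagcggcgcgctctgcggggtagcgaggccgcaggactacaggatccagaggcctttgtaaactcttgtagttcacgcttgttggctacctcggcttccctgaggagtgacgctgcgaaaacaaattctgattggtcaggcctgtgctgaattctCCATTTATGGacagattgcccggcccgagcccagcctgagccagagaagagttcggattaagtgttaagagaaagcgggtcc

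Windows were listed for 8 of the 10 genes, all but Podxl and Synpo, and the CpG content of the windows varied widely. The window of Nphs1 held 6 CpG dinucleotides and that of Ptpro 5, against a median of 7 over all 32851 windows in the table. Cd2ap held 41, Actn4 held 35, Inf2 held 25 in its first window, Myh9 held 19 and Myo1e held 16. Magi2 had a window with 29 and another with 4. The GC box had 6 matches in Myh9, 6 in the first window of Inf2, 4 in Actn4 and 1 each in Cd2ap and the second window of Magi2. It had none in Nphs1, Ptpro, Myo1e or the first window of Magi2, and 35.7% of all windows hold at least 1. CpG content and GC boxes did not follow the level of these 8 genes throughout. Cd2ap held more CpG dinucleotides than Myh9 at a lower level, and Myo1e was abundant without a GC box. Magi2 was low with a CpG-rich window, but its other window was below the median, and which start was in use was not measured. The CArG box of Myo1e starts 32 bases before the start site, and 1.63% of all windows hold such a box. Myh9 had 1 match to the TATA box (13.6% of all windows hold one). It starts 123 bases before the start site and lies on the strand opposite to the one shown. Actn4 and the second window of Magi2 had 1 TEAD match each, and the first window of Inf2 had 3 (14.7% of all windows hold one). These matches describe letters only, and binding was not measured.

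Most of the 10 genes belong to small families, and the relatives were measured in the same libraries. Of 18 relatives on the list, 15 were tested, of which 2 rose and 9 fell, beside 20.4% higher and 19.6% lower over all genes tested. Magi1, Synpo2, Actn1, Myh10 and Diaph1 are also counted in the wider lists described further on. Podxl2, which encodes endoglycan, a sialomucin related to podocalyxin, rose from 22.1, 20.2 and 18.0 CPM in WT to 40.8, 38.7 and 39.1 CPM in AS libraries (log2 fold change 0.97, edgeR, adjusted p = 2.06e-05, SE 0.08), while Podxl fell. The third of these sialomucins, Cd34, averaged 10.3 ± 2.71 CPM over the WT libraries and 8.03 ± 1.52 CPM over the AS libraries (SD, n = 3) and did not pass (adjusted p = 0.205, edgeR), though it did with the replicate block and without WT replicate 1 (adjusted p = 0.0335 and 0.017, edgeR). Per kilobase, Podxl made up 44.4%, 28.2% and 28.0% of the summed level of the family in WT libraries and 15.3%, 14.4% and 12.9% in AS libraries.

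Among the nonmuscle myosin II heavy chains, Myh14, the heavy chain of myosin IIC, fell from 11.5, 14.3 and 13 CPM to 0.444, 0.934 and 0.636 CPM, a log2 fold change of -4.25 (edgeR, adjusted p = 9.93e-07, SE 0.23). Myh10, the heavy chain of myosin IIB, was at 434, 407.5 and 388.5 CPM in WT and 498, 435 and 461 CPM in AS libraries, and its log2 fold change of 0.18 did not pass (adjusted p = 0.0689, edgeR). It passed with library size only, without a filter, with the replicate block, with chromosome medians removed and without WT replicate 1 (adjusted p = 0.0276, 0.0409, 0.0303, 0.0349 and 0.0194, edgeR). Per kilobase, the share of the family's level held by Myh9 was 84.3 ± 0.928% over the 3 WT libraries and 86.9 ± 0.425% over the 3 AS libraries (SD), without overlap. Among the alpha-actinins, Actn1 was more abundant per kilobase than Actn4 and fell alongside it, from 2205, 2181 and 2263 CPM to 1772, 1996 and 1836 CPM (log2 fold change -0.25, edgeR, adjusted p = 0.0196, SE 0.07). The share of Actn4 among the 4 alpha-actinins was 24.8 ± 1.28% over the WT libraries and 24.7 ± 1.52% over the AS libraries (SD, n = 3). Actn1 lost its call without WT replicate 3, AS replicate 1 or AS replicate 3 (adjusted p = 0.0622, 0.0792 and 0.0716, edgeR). The muscle isoform Actn3 was at 0.996 ± 0.126 and 0.658 ± 0.171 CPM (SD, n = 3 each) and did not pass (adjusted p = 0.147, edgeR), and Actn2 was below 0.12 CPM in every library. Such shares were compared in 8 families, and with 3 libraries a group p = 0.1 is the smallest an exact permutation test (two-sided) can give. Myh9, Synpo and Podxl gave that value in the exact permutation test (0.267 with Benjamini-Hochberg adjustment over the 8), and Actn4 gave p = 0.9 in it.

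Other relatives moved as follows. Magi1, a scaffold like Magi2, was at 8.61 CPM per kilobase in WT podocytes, above Magi2, and fell by 0.75 on the log2 scale, from 91.1 ± 3.82 to 54.2 ± 2.10 CPM (SD, n = 3 each, adjusted p = 1.17e-05, edgeR), and Magi3 fell by 0.26 (adjusted p = 0.0216, edgeR). The call of Magi3 was lost with chromosome medians removed, without AS replicate 2 and without AS replicate 3 (adjusted p = 0.174, 0.0637 and 0.0887, edgeR). Sh3kbp1, which encodes the Cd2ap relative CIN85, fell by 0.27 (adjusted p = 0.0078, edgeR), close to the value of Cd2ap. The receptor phosphatases Ptprj and Ptprb, which are related to Ptpro, fell by 0.70 and by 1.65 (adjusted p = 0.000659 and 5.08e-05, edgeR), and Ptprh was under 0.055 CPM in every library. Fhdc1, a formin related to Inf2, rose from 6.06 ± 1.22 to 19.4 ± 1.80 CPM (SD, n = 3 each), which is 1.68 on the log2 scale (adjusted p = 2.84e-05, edgeR). Diaph1, another formin, had a log2 fold change of -0.12 and did not pass (adjusted p = 0.215, edgeR). Of the relatives of Synpo, Synpo2 fell by 0.91 (adjusted p = 4.77e-05, edgeR). Synpo2l was near 1 CPM and fell by 1.18 (adjusted p = 0.0465, edgeR). Its call was lost without WT replicate 2, WT replicate 3, AS replicate 2 or AS replicate 3 (adjusted p = 0.128, 0.0914, 0.138 and 0.152, edgeR). The Synpo2l call was also lost with chromosome medians removed (adjusted p = 0.0612, edgeR). Myo1f, the nearest relative of Myo1e, had no more than 0.0427 CPM in any library.

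**Figure D3:**
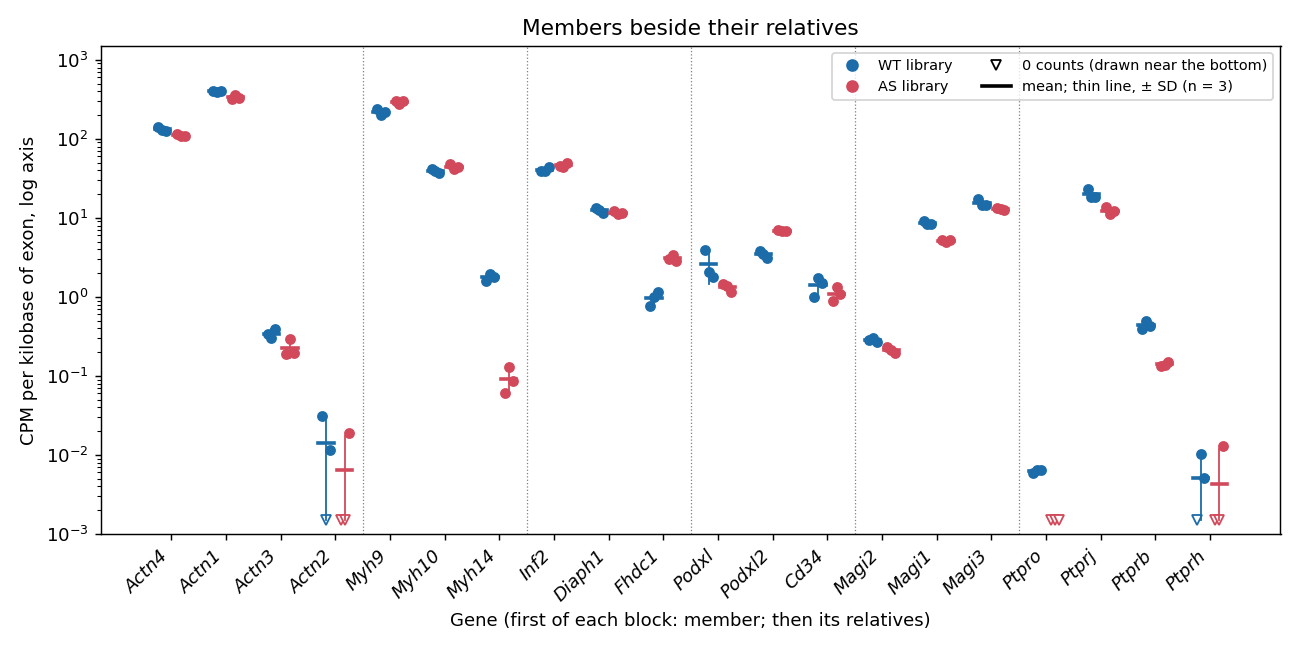
CPM per kilobase of exon (log axis) of 6 of the 10 genes, each the first of a block, and of their relatives, in WT (blue) and AS (red) libraries with mean and SD (n = 3). Myh14 lies far lower in AS libraries, Podxl2 and Fhdc1 lie higher, and Actn1 lies above Actn4 in every library.

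The wider machinery of the slit diaphragm was described from a list of 19 other genes, of which 16 were tested, 4 rose, 6 fell and 6 did not pass. The median log2 fold change over the 16 was -0.078. Without WT replicate 2, or without WT replicate 3, 2 rose and 4 fell. Crb2, a polarity protein needed for the slit diaphragm, fell from 18.0, 18.4 and 20.6 CPM in WT to 2.02, 2.10 and 2.31 CPM in AS libraries, a log2 fold change of -3.14 (edgeR, adjusted p = 1.01e-07, SE 0.12). Plce1, the phospholipase C epsilon mutated in inherited nephrotic syndrome, fell by 1.96 (edgeR, adjusted p = 6.53e-05, SE 0.20), from 8.14 ± 1.54 to 2.09 ± 0.412 CPM (SD, n = 3 each). In the other direction Pard3, a polarity protein that binds nephrin, rose by 0.60 (edgeR, adjusted p = 0.000173, SE 0.07). Its chromosome, 8, was shifted by 0.31, and with that removed the value was 0.29 (adjusted p = 0.0116, edgeR). Kirrel, which encodes the nephrin partner NEPH1, averaged 480 ± 78.0 CPM over the WT libraries and 419 ± 38.03 CPM over the AS libraries (SD, n = 3) and did not pass (log2 fold change -0.20, adjusted p = 0.201, edgeR), though it did with the replicate block (adjusted p = 0.0371, edgeR). Per kilobase, NEPH1 RNA stood at 64.3 ± 10.5 CPM in WT podocytes (SD, n = 3), where nephrin RNA was at 0.0704.

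Of 6 other apical membrane genes, all were tested, 1 rose, 1 fell and 4 did not pass, with a median log2 fold change of -0.074. Pdpn, which encodes podoplanin, rose by 0.46 (edgeR, adjusted p = 0.0104, SE 0.11), from 185 ± 36.2 to 255.5 ± 2.94 CPM (SD, n = 3 each). Msn, which encodes moesin, a linker of membrane proteins to actin, fell by 0.23 (edgeR, adjusted p = 0.0151, SE 0.06). That call was lost without WT replicate 3, AS replicate 1 or AS replicate 3 (adjusted p = 0.0503, 0.0614 and 0.0508, edgeR). The Msn call was also lost with chromosome medians removed (adjusted p = 0.0529, edgeR). Of 30 other actin genes of the foot process, 29 were tested, 6 rose, 12 fell and 11 did not pass, with a median of -0.12. Without AS replicate 3, 4 rose and 7 fell. The 4 with the smallest adjusted p were Tns2, Synpo2, Anln and Wasl. Tns2, which encodes the focal adhesion protein tensin 2, rose from 67.4, 65.7 and 66.1 CPM to 114, 116 and 115 CPM (log2 fold change 0.79, edgeR, adjusted p = 2.42e-06, SE 0.05). Anln, which encodes anillin, an actin-binding protein also used in cell division, fell by 0.78 (edgeR, adjusted p = 0.00129, SE 0.13). Wasl, the N-WASP activator of branched actin, fell by 0.34 (edgeR, adjusted p = 0.0013, SE 0.06). It lies on chromosome 6, and with the median of that chromosome removed it did not pass (adjusted p = 0.124, edgeR). As for the 10 genes, these counts stand beside 20.4% higher and 19.6% lower over all genes tested.

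**Figure D4:**
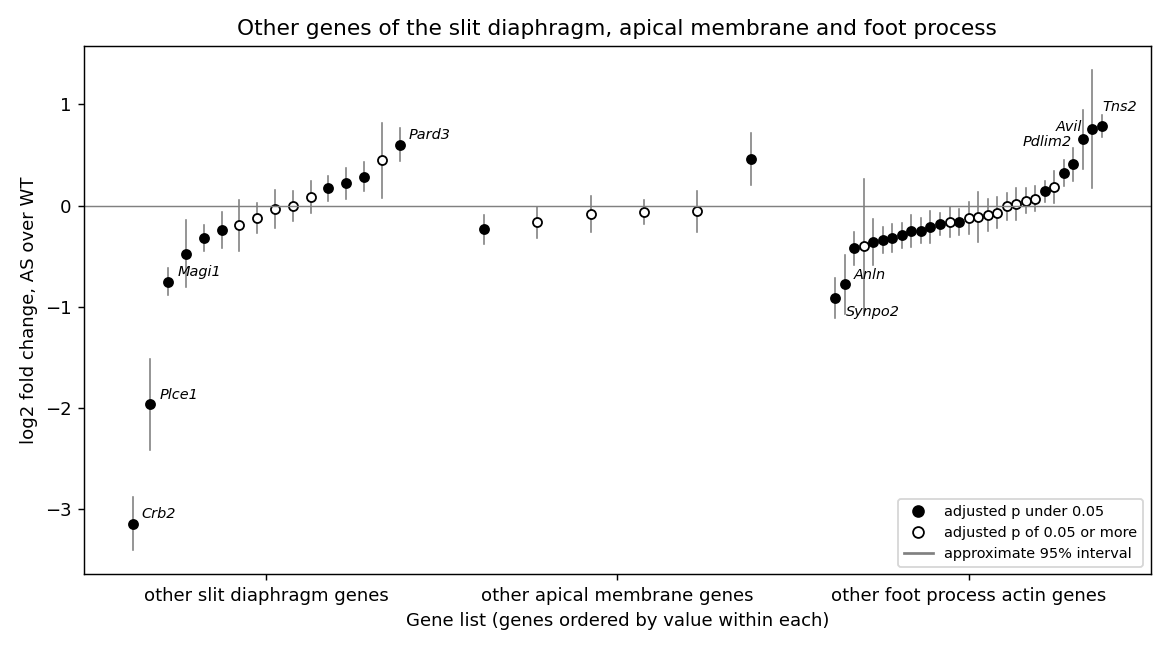
Log2 fold change (AS over WT) with its approximate 95% interval for the tested genes of the lists of other slit diaphragm, apical membrane and foot process actin genes, ordered by value, where filled points passed an adjusted p of 0.05 and genes beyond 0.6 in size are named. Crb2 at -3.14 and Plce1 at -1.96 lie farthest from 0.

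The label of podocyte was checked against 17 podocyte markers, which include Nphs1, Ptpro, Podxl and Synpo. The transcription factors Wt1 and Lmx1b moved in opposite directions. Wt1 fell from 25.8, 15.3 and 20.7 CPM to 2.93, 1.44 and 3.14 CPM (log2 fold change -3.04, adjusted p = 3.57e-05, edgeR), and Lmx1b rose from 0.986, 0.534 and 0.650 CPM to 8.33, 7.39 and 7.36 CPM (log2 fold change 3.40, adjusted p = 3.73e-06, edgeR). Foxc2 rose by 0.27 (-0.040 with chromosome medians removed), and Foxc1 fell by 0.43 (adjusted p = 0.0111 and 0.00586, edgeR). Tcf21 had 0 counts in every library. Among the membrane markers, Thsd7a rose by 1.34 and Pla2r1 fell by 3.39 (adjusted p = 7.41e-06 and 1.07e-05, edgeR). Cdkn1c, a cell cycle inhibitor, rose by 1.31 at a low level (adjusted p = 0.0202, edgeR), a call that was lost without AS replicate 1 (adjusted p = 0.0794, edgeR). Clic5, Dach1 and Vegfa did not pass. In all, 14 of the 17 were tested, 5 rose and 6 fell (20.4% and 19.6% over all genes tested). The 6 include Nphs1, whose direction the filter fixed. The summed level was 1189 to 1315 CPM in WT and 970 to 1054 CPM in AS libraries, most of it from Synpo. The RNA of nephrin, the defining marker of the slit diaphragm, thus averaged 0.466 CPM in WT and 0.0407 CPM in AS libraries. Synpo, Foxc1, Foxc2, Thsd7a and Vegfa were above 50 CPM in every library.

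Markers of other kidney cells were read in the same libraries, and their counts again stand beside 20.4% higher and 19.6% lower over all genes tested. The 6 parietal epithelial markers were all tested, 3 fell and none rose. Their summed level was 3393 to 4603 CPM in WT and 2865 to 3274 CPM in AS libraries, most of it from Akap12. Pax2, Pax8, Cd44 and Aldh1a2 also averaged 171.5, 221, 250 and 280 CPM in WT and 115.5, 198, 184 and 182 CPM in AS libraries, and Cldn1 18.8 and 22.2 CPM. Of 6 mesangial markers 5 were tested, 1 rose and 1 fell, with sums of 331 to 359 and 279.5 to 294.5 CPM. Of 6 endothelial markers 2 were tested and both fell, Ehd3 and Kdr. Kdr passed the filter through its WT libraries (13, 42 and 28 counts, against 5, 15 and 2 in AS), so its fall is only a description, and its groups overlapped. The sums were 44.7 to 52.4 and 37.96 to 42.96 CPM, nearly all from Ehd3, while Pecam1, Cdh5, Tek and Emcn were below 0.28 CPM in every library. Of 6 tubular markers 2 were tested and neither passed, with sums of 246.5 to 307.5 and 197 to 307 CPM, nearly all from Lrp2, and Umod and Aqp2 had 0 counts in every library. Of 6 leukocyte markers 3 were tested and 1 fell, with sums of 11.2 to 15.0 and 5.11 to 7.02 CPM, and Cd3e had 0 counts in every library. The part of other cell states in the differences above was not tested, and in these bulk libraries fewer cells that express a gene and less RNA per cell cannot be told apart.

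The genes whose log2 CPM followed 2 of the 10 most closely over the 6 libraries were named as a description, among 9155 other genes with a mean of at least 10 CPM. For Synpo, the gene with the smallest adjusted p among those that fell, they were Nkiras1, Casc4 and Prkg1 (Pearson r = 0.999, 0.998 and 0.997). For Myh9 they were Mllt3, Tbc1d32 and Cfap97 (Pearson r = 0.999, 0.999 and 0.998). With 2 groups of 3 libraries, such values mostly reflect the difference between the lines and carry no p.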

How the data were processed

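RNA-seq counts of 3 WT and 3 AS libraries were analysed. The authors deposited raw counts of reads per gene, without normalization, for each library. The submitters' processing notes name FastQC, Trim Galore, STAR, edgeR and the build mm39. Not given in the sources used here were the counting tool, its strand setting and the annotation release. Of 57132 identifiers, 51880 matched GENCODE M21 (GRCm38), which gave symbols, chromosomes and exon lengths (the union of all exons). Only 35 identifiers had the same version there. The exonic bases shared by overlapping genes also come from its GRCm38 coordinates, while the build named for the counts is mm39. Identifiers without a match held 0.363% of the counts. Promoter windows came from the RefSeq table.

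The tests were run with edgeR 4.0.16 (R 4.3.3). Low genes were removed with filterByExpr at a minimum count of 10 and a minimum total of 15, and the rest were scaled by TMM and tested with the quasi-likelihood test on genotype alone, whose code was tested on simulated data. The standard error is the log2 fold change over the root of F, an approximation, and intervals follow from it. The alternatives were RLE scaling, library size only, DESeq2 1.42.0, limma-voom (limma 3.58.1, the study's tool), no filter, a replicate block, a mean CPM minimum of 1, chromosome medians removed (taken over genes with a mean log2 CPM over 2) and each library left out.

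The members, lists and alternatives were chosen with earlier results of these data known. Named were the 10 genes, Col4a3, at most 4 called genes of each other list by adjusted p, Kirrel, Actn1 and Myh10, all relatives and podocyte markers, and the 3 genes most like the member with the smallest adjusted p in each direction. Some genes of these lists are counted but not reported here by name. Single markers of other cell types and overlapping genes were named after their values were seen. With 3 libraries a group, none was tested as an outlier. Counting intervals leave out all error other than counting, as PCR copies were not told apart by molecular identifiers.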

Additional observations from a re-analysis of the deposited data

How the results depend on the processing

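The number of the 10 genes called ran from 6 to 8 over the alternatives (1 higher and 6 lower in the main test, 2 higher and 6 lower with library size only), apart from the study's rule (fold change over 2 with p under 0.05 before adjustment), which kept 1. Under that rule, applied here to the edgeR test and not to the study's limma-voom fit, 1966 genes were called in all, against 6517. Of 125 refits of the 9 tested genes, 117 kept direction and side of the threshold, 6 gained it, 2 lost it and 0 changed sign. Among them are 13 refits of Nphs1, all called, and Nphs1 is also in the numbers above wherever it was fitted. The filter fixed the direction of Nphs1 in each of these except the fit without a filter. Nphs1 could not be fitted with a mean CPM of at least 1. With chromosome medians removed, 1 apical membrane gene was called in place of 2, and the Foxc2 log2 fold change was -0.040. With each library left out, the other slit diaphragm genes called ran from 6 to 11 (6 without WT replicate 2 and without WT replicate 3, against 10), the other apical membrane genes from 1 to 2 (1 without AS replicate 1 or AS replicate 3) and the other foot process actin genes from 11 to 18 (11 without AS replicate 3). Clic5, which did not pass, ran from -0.23 without AS replicate 1 through -0.016 without WT replicate 2 to 0.21 without AS replicate 2. The cause was not tested.

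Libraries share set numbers. After subtracting each group's mean, libraries of equal number correlated at 0.284, 0.16 and 0.0801, and the others between -0.231 and 0.139. Each AS library correlated best with the WT library of its own number, but WT replicate 3 correlated best with AS replicate 2. These values do not settle whether the numbers pair the libraries, and the main test leaves the numbers out. With the replicate block, 7066 genes were called in all and 8 of the 10, Inf2 being added (adjusted p = 0.016, edgeR), with 12 other slit diaphragm, 2 apical membrane and 18 actin genes. Depth limits Nphs1 and Ptpro.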
